A study of Saccharomyces cerevisiae with 33 samples.

Results

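The transcriptome of the *ino2*Δ*ino4*Δ strain of Saccharomyces cerevisiae under nitrogen limitation was compared with that of the reference strain under the same limitation. The comparison holds 6 of the 33 arrays of the study, namely the 3 N-limited double deletion arrays and the 3 N-limited reference arrays, chosen by their sample titles. All 5498 probe sets that could be paired with 1 yeast gene entered, which gave 5449 genes. The reference was the prototrophic strain CEN.PK113-7D of mating type a, and the double mutant, CEN.PK1033-9A, was its derivative lacking both *INO2* and *INO4*. All cultures were aerobic steady-state chemostats at 1 dilution rate on minimal medium, and all media, those of the reference included, contained added inositol and choline. N-limited names the medium here. For the N-limited double mutant the paper reports a lower biomass yield and more glucose left over than for the N-limited reference. The part of this difference in the results below was not tested. The N-limited *ino2*Δ and *ino4*Δ strains (3 arrays each), and the C-limited (glucose-limited) reference and double mutant (3 arrays each), were used for further comparisons. The study describes biological replicates for its chemostat physiology, but the labels do not tie the arrays to separate cultures. The p-values thus measure only the spread between arrays within groups, which may be technical. In the main model that spread is estimated per gene over all 33 arrays, not only over the arrays compared. Each value is a log2 signal intensity, and a difference of 1 between values is a change of 1 doubling.

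Ino2 and Ino4 are transcription factors that bind DNA together as a heterodimer. They activate genes of phospholipid synthesis through a promoter sequence called the inositol-sensitive upstream activating sequence (UASINO), and the repressor Opi1 holds the heterodimer back when inositol is abundant. A strain that lacks either partner cannot make its own inositol and depends on inositol in the medium. Under nitrogen limitation, yeast also expresses permeases and enzymes for poor nitrogen sources through the GATA factors Gln3 and Gat1, a state known as release from nitrogen catabolite repression.

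The array medians of the whole series lay between 7.14 and 7.44 (log2). The background level, under which 95% of the probe sets of genes outside the S. cerevisiae table lie, was 5.47 (log2) and ranged from 5.39 to 5.53 per array. Within both N-limited groups the replicates were not equally alike. Reference replicates 2 and 3 correlated at r = 0.993 across genes, against 0.941 and 0.919 for replicate 1 with each of them. Double mutant replicates 1 and 3 correlated at r = 0.981, against 0.944 and 0.920 for replicate 2 with each of them. The deviations run in the same genes. Across the 5449 genes, the difference of reference replicate 1 from replicates 2 and 3 correlated at r = 0.836 with the difference of double mutant replicates 1 and 3 from replicate 2, a description in which genes are not independent replicates. Both differences were -1 or lower (log2) for 174 genes and 1 or higher for 2 genes, and no gene differed by that much in opposite directions. *HAC1*, the transcription factor of the unfolded protein response, was the clearest case, at 6.31, 9.31 and 9.82 (log2) in reference replicates 1 to 3 and at 7.04, 10.19 and 6.87 in the double mutant. *PMA1*, the plasma membrane proton pump, read 8.82, 10.81 and 11.42 against 8.65, 11.08 and 8.25. Reference replicate 1 and double mutant replicates 1 and 3 are called the 3 arrays that stand apart below, and results that rest on them are given also without them, which leaves 1 double mutant array against 2 reference arrays and assumes that the lone array varies like the other groups. The 3 arrays share the lower readings of the 174 genes. Within the double mutant, however, replicate 2 is the one unlike the others, and which arrays are typical was not tested. Of the 174 genes, 18 passed the test of the double deletion, against 880 of all 5449 genes. Of 7 MATa-specific marker genes 0 passed the test. *STE2* came nearest, at -1.25 ± 0.38 with overlapping groups (adjusted p = 0.0168 from limma). Of 4 MATalpha-specific genes, MF(ALPHA)1 (alpha-factor) fell, from 6.23, 7.35 and 7.47 in the reference to 5.64, 5.51 and 5.56 in the double mutant, and *STE3* (the a-factor receptor) rose by 0.63, a call lost without the 3 arrays (adjusted p = 0.102). Their part in the results was not tested.

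**Figure D1:**
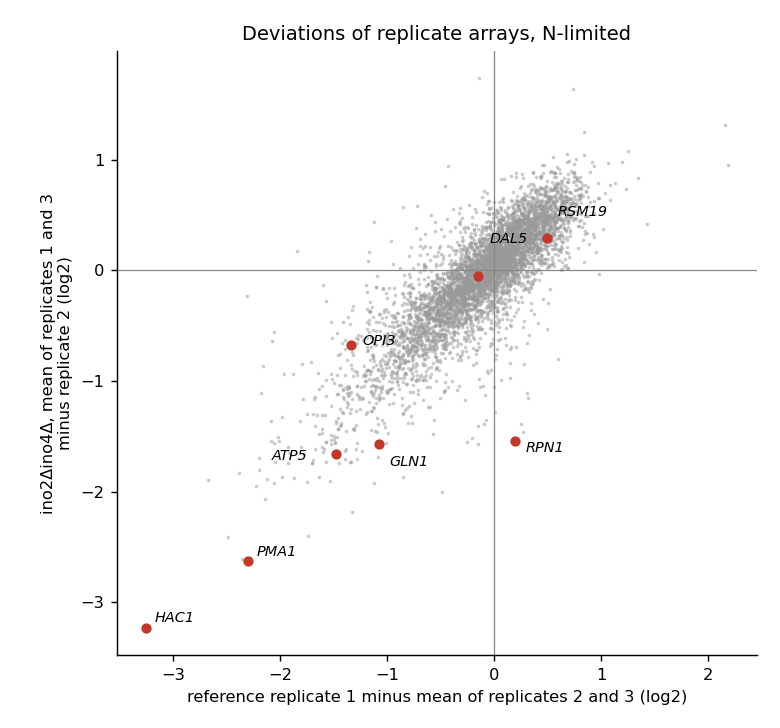
Each grey point is 1 of 5449 genes, the x axis is reference replicate 1 minus the mean of replicates 2 and 3, and the y axis is the mean of double mutant replicates 1 and 3 minus replicate 2 (both log2, N-limited). The 8 genes in red are named, and the points spread along the diagonal (r = 0.836) from *HAC1* and *PMA1* at the lower left.

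The deleted genes were checked first. *INO4* read 7.56, 7.64 and 7.26 (log2) in the reference and 5.05, 5.15 and 5.18 in the double mutant, where no array was above background. The measured difference was -2.35 ± 0.30 (SE from limma, adjusted p = 1.3e-06, n = 3 and 3), and against the background level *INO4* was at least 3.95-fold lower. *INO2* is a weakly expressed gene and read 5.90, 5.95 and 5.95 in the reference against 5.11, 5.11 and 5.12 in the double mutant, again with no array above background. It was at least 1.35-fold lower (measured difference -0.82 ± 0.16, adjusted p = 4.3e-04 from limma, n = 3 and 3), and without the 3 arrays that stand apart the call was lost at a like size (-0.84, adjusted p = 0.0305). *OPI1*, the repressor gene, read 7.56, 8.24 and 8.14 in the reference and 7.14, 7.26 and 7.10 in the double mutant, and fell by 0.82 ± 0.13 (adjusted p = 3.9e-05 from limma). The groups did not overlap for any of the 3 genes, and the exact two-sided permutation test of 3 arrays against 3 gave p = 0.1 for each, which is the smallest p it allows. All N-limited double mutant arrays thus read as their label says. Of the C-limited double mutant arrays, the one labelled replicate 1 read *INO4* at 6.64, against 5.09 and 5.15 in replicates 2 and 3, and the C-limited count and the differences between limitations are given also without it.

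Loss of both factors went with a broad response under N-limitation. Of the 5449 genes, 439 rose and 441 fell at an adjusted p below 0.01 (limma with Benjamini-Hochberg adjustment, a single model of all 33 arrays), which are 8.06% and 8.09% of the genes tested. The median change of all genes was 0.01 (log2). The same deletion called 31 genes under C-limitation (4 higher, 27 lower), or 110 (56 higher, 54 lower) without C-limited double mutant replicate 1, a setting added after the data were seen, and the single deletions called 33 (*ino2*Δ) and 30 (*ino4*Δ) under N-limitation. These counts depend on how the spread is estimated: with only the 6 arrays in the model 142 genes passed, the methods' t-test passed 18 (5 higher, 13 lower), and without the 3 arrays that stand apart 454 passed (192 higher, 262 lower). Leaving out single arrays gave 635 to 1212 genes.

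Of 24 measured genes of phospholipid and inositol synthesis and uptake, 11 fell and 1 rose, 45.8% and 4.2% of the list against 8.09% and 8.06% of all genes, and the median change of the list was -0.40 (log2). In bulk cultures, fewer cells that express a gene and less RNA per cell cannot be told apart. Both methyltransferase genes of phosphatidylcholine synthesis fell. *OPI3*, the phospholipid methyltransferase of the last steps, read 9.24, 10.57 and 10.57 in the reference and 6.94, 7.45 and 6.62 in the double mutant, a log2 fold change of -3.12 ± 0.27 (adjusted p = 2.9e-09 from limma). *CHO2*, the methyltransferase of the first step, read 10.26, 10.09 and 10.16 against 8.05, 8.40 and 8.92, and fell by 1.72 ± 0.16. *CHO1*, phosphatidylserine synthase, was at 9.21, 9.33 and 9.58 against 8.59, 8.59 and 8.67, and fell by 0.75 ± 0.11. For each of these 3 genes the lowest reference array was above the highest double mutant array. Both phosphatidylserine decarboxylase genes missed the threshold, *PSD1* at -0.63 ± 0.21 (adjusted p = 0.0302 from limma) and *PSD2* at 0.18 ± 0.10.

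Signals of 3 genes of inositol and choline supply fell as well. *ITR1*, the main inositol transporter, read 10.39, 10.69 and 10.88 in the reference and 8.57, 8.44 and 8.40 in the double mutant, and fell by 2.18 ± 0.14 (adjusted p = 3.8e-12 from limma), while its relative *ITR2* stood at 0.09 ± 0.12. *INO1*, inositol-3-phosphate synthase and the classical target of the heterodimer, was at 7.20, 7.76 and 7.66 against 6.08, 5.95 and 5.68, and fell by 1.64 ± 0.18. *HNM1*, the choline transporter, read 8.80, 9.80 and 10.11 against 7.60, 8.39 and 7.30 and fell by 1.81 ± 0.25. The groups were apart for these 3 genes, although reference replicate 1 was the lowest reference array for each.

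In the Kennedy pathway, which builds phosphatidylcholine and phosphatidylethanolamine from free choline and ethanolamine, *CKI1* (choline kinase) fell by 0.96 ± 0.09, *CPT1* (cholinephosphotransferase) by 0.41 ± 0.07 and *EPT1* (ethanolaminephosphotransferase) by 0.39 ± 0.08. *EKI1* (ethanolamine kinase), *PCT1* and *ECT1* (which form CDP-choline and CDP-ethanolamine) did not pass, at 0.10, 0.29 and -0.28. *URA8*, a minor CTP synthase, fell by 0.72 ± 0.11, while *URA7*, the major one, stood at -0.03 ± 0.33. Of the phosphatidate phosphatases, *DPP1* fell by 1.43 ± 0.20 (8.10, 8.94 and 9.15 against 7.32, 7.71 and 6.86), and *LPP1* at 0.26 and *PAH1* at -0.24 did not pass. The 1 member that rose was *SCT1*, a glycerol-3-phosphate acyltransferase, by 0.42 ± 0.10. Its relative *GPT2* (0.12), the next acyltransferase *SLC1* (0.37), *CDS1* (CDP-diacylglycerol synthase, -0.45) and *PIS1* (phosphatidylinositol synthase, -0.30) did not pass. With only the 6 arrays in the model 5 genes of the list fell. When the 3 arrays that stand apart were left out 9 fell, and *CPT1* (adjusted p = 0.0485), *EPT1* (0.0168) and *SCT1* (0.106) no longer passed.

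**Figure D2:**
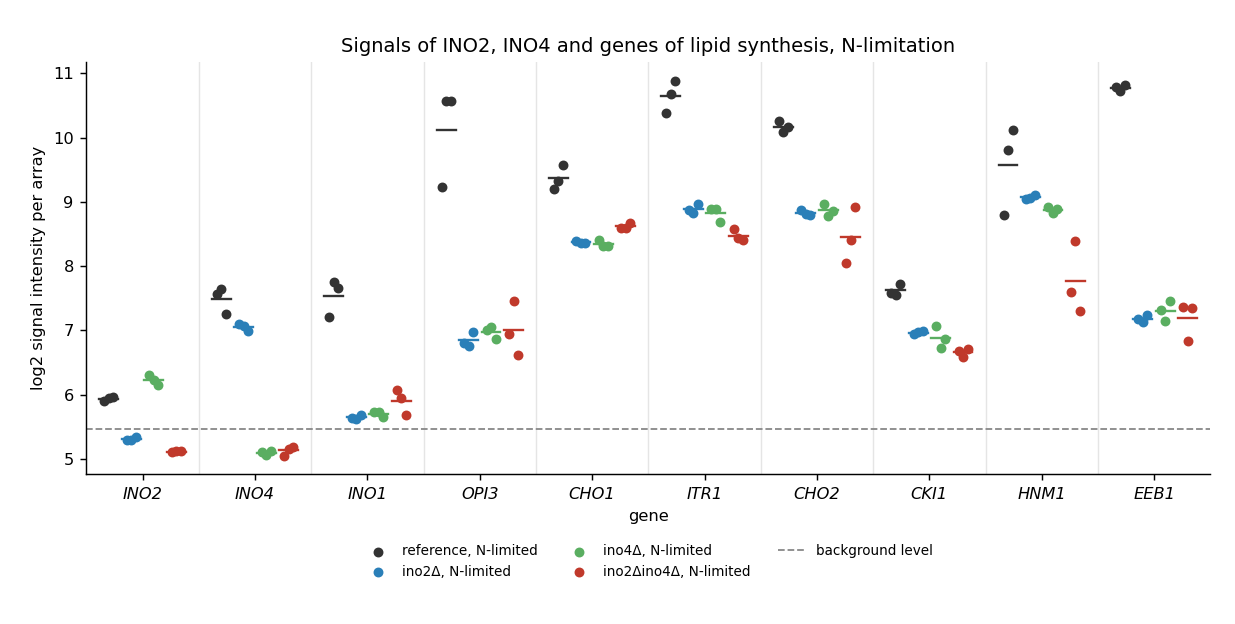
Log2 signal intensity of 10 genes in the N-limited arrays of 4 strains (points are arrays, short lines means of 3 arrays, dashed line the background level of 5.47). For *OPI3*, *INO1* and *EEB1* the double mutant arrays overlap those of at least 1 single mutant, while the double mutant mean of *HNM1* lies below that of either single mutant.

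The double mutant was then compared directly with each single mutant. For *OPI3*, *INO1* and *CHO1* no difference from either single mutant passed the test. *OPI3* differed by 0.16 from *ino2*Δ (95% interval -0.40 to 0.72) and by 0.03 from *ino4*Δ (-0.53 to 0.59). *INO1* differed by 0.26 (-0.11 to 0.62) and 0.20 (-0.17 to 0.57), and *CHO1* by 0.25 (0.02 to 0.47) and 0.27 (0.05 to 0.49), on the side of a smaller fall. *ITR1* stood at -0.42 and -0.35 (adjusted p = 0.0174 and 0.0418 from limma) and *CHO2* at -0.37 and -0.41 (0.0633 and 0.0391), on the side of a larger fall without passing, and *CKI1* passed against *ino2*Δ at -0.31 (adjusted p = 7.3e-03 from limma), but not without the 3 arrays that stand apart (adjusted p = 0.0320). Other members were lower in the double mutant than in both single mutants, with log2 differences of -1.31 and -1.11 for *HNM1*, -1.74 and -1.80 for *DPP1*, and -0.52 and -0.45 for *CPT1* (adjusted p from 1.5e-07 to 1.1e-03 from limma). Without the 3 arrays that stand apart, *HNM1* (-0.69 and -0.49, adjusted p = 0.0301 and 0.136) and *CPT1* against *ino4*Δ (adjusted p = 0.0161) were no longer called, while *DPP1* was (-1.32 and -1.38). Over the list, 5 genes were lower and 0 higher than in *ino2*Δ, where 11.1% of all genes were called lower and 13.1% higher. Against *ino4*Δ 3 were lower and 1 higher, with 12.2% and 12.6% of all genes called. When the 3 arrays were left out these counts were 3 lower and 1 higher against *ino2*Δ and 1 and 1 against *ino4*Δ.

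Of the other lipid genes, 8 of 20 genes of fatty acid synthesis, elongation and desaturation fell and 1 rose, with a list median of -0.43. These are 40.0% and 5.0% of the list, against 8.09% and 8.06% of all genes. *FAA1*, a long-chain acyl-CoA synthetase, read 10.08, 9.97 and 10.07 in the reference and 8.66, 8.18 and 8.46 in the double mutant and fell by 1.61 ± 0.18 (adjusted p = 1.5e-07 from limma). *FAS1* and *FAS2*, the subunits of fatty acid synthase, fell by 1.14 ± 0.20 and 0.73 ± 0.16, and *FAA3* fell by 1.05 ± 0.13. *TSC13* and *IFA38*, enzymes of the elongation cycle, fell by 0.91 and 0.87, whereas *MCT1*, of mitochondrial fatty acid synthesis, rose by 0.24. With only the 6 arrays in the model 2 of the 20 fell. Leaving out the 3 arrays that stand apart gave 4 that fell and 0 that rose, and *FAS1* (-0.84, adjusted p = 0.0514), *TSC13* (-0.29) and *MCT1* (0.14) were no longer called. Of 24 sphingolipid genes 7 fell (29.2%, and fewer without the 3 arrays) and 0 rose. *SUR2*, the sphinganine hydroxylase, led at -1.43 ± 0.22, with *LCB3* (not called without the 3 arrays) and *TSC10* at -0.79 and -0.78. Among 23 ergosterol genes *ERG1* (squalene epoxidase, -1.25) and *ERG5* (-0.94) fell and *ERG4* (0.92) rose. These are 8.7% and 4.3% of the list, against 8.09% and 8.06% of all genes. The falls of *ERG1* and *ERG5* were not called without the 3 arrays (-0.38 and -0.79). Of 12 storage lipid genes only *ARE1*, a sterol ester synthase, rose (0.47), 8.3% of the list against 8.06% of all genes. It was not called without the 3 arrays. The ethyl ester synthase gene *EEB1* was also compared with the single mutants. It read 10.79, 10.73 and 10.82 in the reference against 7.36, 6.84 and 7.35, fell by 3.59 ± 0.16, and differed from *ino2*Δ by 0.01 (95% interval -0.31 to 0.33) and from *ino4*Δ by -0.12 (-0.44 to 0.20).

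Genes of nitrogen source uptake were among those with the largest falls. Of 27 permeases and transporters 12 fell and 2 rose, with a list median of -0.57. These are 44.4% and 7.4% of the list, against 8.09% and 8.06% of all genes. *OPT2*, an oligopeptide transporter, read 11.55, 11.69 and 11.99 in the reference and 5.36, 5.71 and 5.53 in the double mutant, of which 2 arrays were above background. Its log2 fold change of -6.21 ± 0.10 (adjusted p = 2.3e-25 from limma) was the largest of all genes tested. *DAL5*, the allantoate permease, read 11.84, 11.83 and 12.14 against 7.37, 7.11 and 6.75, and fell by 4.86 ± 0.24.

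*PUT4*, the proline permease, was at 10.45, 10.96 and 11.24 in the reference and at 6.44, 6.51 and 6.12 in the double mutant, and fell by 4.53 ± 0.32. *GAP1*, the general amino acid permease, was at 11.48, 11.59 and 11.98 against 7.67, 8.14 and 7.64 and fell by 3.87 ± 0.28. *PTR2*, the di- and tripeptide transporter, read 8.67, 9.89 and 10.24 against 5.79, 6.43 and 5.81 and fell by 3.59 ± 0.33. The groups were more than 2 log2 units apart for each of these 3 genes. *DUR3* (urea, -2.44), *DAL4* (allantoin, -2.41, with 1 double mutant array above background), *DIP5* (acidic amino acids, -2.24) and *OPT1* (-1.76, with 2 double mutant arrays above background) also fell. The ammonium permease gene *MEP2* read 12.12, 12.35 and 12.50 against 10.29, 10.11 and 10.31 and missed the threshold (-2.08 ± 0.63, adjusted p = 0.0158 from limma), and *MEP1* and *MEP3* stood at -0.48 and -0.30. Both members that rose are amino acid permeases. *GNP1*, the glutamine permease, rose from 6.201, 5.85 and 5.99 to 8.15, 7.79 and 8.09 (1.99 ± 0.26), and *BAP2*, a branched-chain amino acid permease, rose by 1.17 ± 0.27, a call lost without the 3 arrays that stand apart (1.61, adjusted p = 0.0104). Without those arrays 10 members fell and 1 rose.

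Genes for the breakdown of nitrogen sources fell too. Of 20 measured genes 11 fell and 0 rose, with a median of -1.31, and the falls are 55.0% of the list against 8.09% of all genes. *CPS1*, vacuolar carboxypeptidase S, read 11.12, 11.77 and 11.83 in the reference and 8.53, 9.05 and 8.22 in the double mutant and fell by 2.98 ± 0.18 (adjusted p = 1.7e-12 from limma). *PUT1*, proline oxidase, read 10.08, 10.82 and 10.87 against 7.68, 8.48 and 7.51 (-2.70 ± 0.26). *DAL7*, a malate synthase expressed with the allantoin genes, read 9.93, 9.44 and 9.47 against 7.63, 7.15 and 7.54 (-2.17 ± 0.26). For these 3 genes the groups were apart, but not for *PUT2* (8.51, 9.79 and 10.17 against 7.84, 8.94 and 7.03), which fell by 1.55 ± 0.34 and was not called without the 3 arrays that stand apart (-1.04, adjusted p = 0.0105). *ECM38* (-1.55, gamma-glutamyltranspeptidase) fell as well, and so did *DAL1* and *DAL2*, allantoinase and allantoicase (-1.37, with 1 double mutant array above background, and -1.35). The arginase gene *CAR1* went the other way without passing (0.87 ± 0.26, adjusted p = 0.0129). Leaving out the 3 arrays, it was called as higher (1.38) and 10 genes as lower, and with only the 6 arrays in the model 6 genes were lower.

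Among 20 nitrogen regulators and genes of ammonium assimilation, 7 fell and 1 rose, 35.0% and 5.0% against 8.09% and 8.06% of all genes. *DAL80*, a GATA repressor that is itself under nitrogen catabolite repression, read 10.71, 10.69 and 10.49 in the reference and 6.93, 6.75 and 6.90 in the double mutant (-3.77 ± 0.21, adjusted p = 3.1e-13 from limma). *GAT1*, a GATA activator, fell by 1.24 ± 0.13, while *GLN3* (-0.07), *GZF3* (-0.12) and *URE2* (0.36), which also act in this circuit, did not pass. The groups were apart for *DAL80* and *GAT1*. *GLT1*, glutamate synthase, read 10.43, 10.41 and 10.62 against 8.71, 9.54 and 8.11 (-1.70 ± 0.21). *GLN1*, glutamine synthetase, read 10.19, 11.16 and 11.37 against 9.06, 10.57 and 8.94 (-1.38 ± 0.32), with overlapping groups, and was not called without the 3 arrays (-0.69, adjusted p = 0.173). With only the 6 arrays in the model 2 of the 20 fell. The proline activator gene *PUT3* rose by 0.54 ± 0.13, also not without those arrays (0.37, adjusted p = 0.243).

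Several nitrogen genes differed between the double and the single mutants. Against *ino2*Δ and *ino4*Δ, the log2 differences were -5.89 and -5.75 for *OPT2*, -5.09 and -4.96 for *DAL5*, and -4.05 and -3.90 for *GAP1* (adjusted p for *GAP1* of 5e-11 and 9.6e-11 from limma). In the single mutants themselves *GAP1* stood at 0.18 and 0.03 against the reference, and *DAL5* at 0.23 and 0.10. Of the 27 permeases 14 were lower and 3 higher than in *ino2*Δ, and 12 were lower and 2 higher than in *ino4*Δ. Of the breakdown genes 12 and 13 of 20 were lower. In these contrasts with *ino2*Δ and *ino4*Δ, 11.1% and 12.2% of all genes were called lower and 13.1% and 12.6% higher. Without the 3 arrays that stand apart the permeases lower were 12 and 10, and the breakdown genes 10 and 10.

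Genes of the respiratory chain fell while genes that build the mitochondrial translation machinery rose. Of 28 genes of the respiratory complexes and cytochrome c, 20 fell and 0 rose, 71.4% of the list against 8.09% of all genes, with a median of -1.12. *COX5A*, a subunit of cytochrome c oxidase, read 9.48, 10.44 and 10.52 in the reference and 8.11, 8.61 and 7.82 in the double mutant (-1.96 ± 0.24, adjusted p = 9.1e-07 from limma). *COX8*, another subunit, read 10.04, 10.04 and 10.11 against 8.45, 8.74 and 8.61 (-1.46 ± 0.11), and *QCR2*, of the cytochrome bc1 complex, 9.35, 9.72 and 9.85 against 8.34, 8.36 and 8.29 (-1.31 ± 0.16). For these the groups were apart. *COX4* (-1.76) and the succinate dehydrogenase gene *SDH2* (-1.73) fell with overlapping groups, since reference replicate 1 lay at 8.09 and 8.05, below double mutant replicate 2 at 8.63 and 8.35. *CYC1*, iso-1-cytochrome c, stood at -0.17 ± 0.23 and *NDE1*, an external NADH dehydrogenase, at 0.00 ± 0.10. *RIP1*, the Rieske protein, at -1.91 ± 0.58 missed the threshold. With only the 6 arrays in the model 7 of the 28 fell, and without the 3 arrays that stand apart 16 fell, with *SDH2* not among them (adjusted p = 0.0309).

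Of all genes, 8.09% fell and 8.06% rose, and the ATP synthase and citric acid cycle counts can be read against these shares. Of 20 genes of ATP synthase 11 fell (55.0%) and 2 rose, and 1 fell with only the 6 arrays in the model. *INH1*, the inhibitor of its hydrolysis activity, read 10.40, 10.43 and 10.37 in the reference and 8.24, 7.97 and 8.17 in the double mutant, the tightest of these changes (-2.27 ± 0.10, adjusted p = 1.8e-15 from limma). *ATP5* fell by 2.17 ± 0.39 (8.82, 10.15 and 10.44 against 7.19, 8.73 and 6.96), and *ATP16* (-1.86), *ATP7* (-1.69) and *ATP1*, the alpha subunit (-1.11 ± 0.11), fell too. The members that rose were *ATP11* and *ATP12*, chaperones that assemble the catalytic part, by 0.80 ± 0.15 and 0.86 ± 0.16. The changes of *ATP12* (0.67, adjusted p = 0.0546) and *ATP16* (-1.35, adjusted p = 0.0223) were not called without the 3 arrays. Of 20 measured genes of the citric acid cycle list 3 fell and 3 rose, with a list median of -0.02. Over the list 10 genes had a positive and 10 a negative change. The genes that fell were *KGD2* (-1.38), *LSC2* (-1.19) and *MDH1* (-1.02), of the mitochondrial cycle. Those that rose were *IDH2* (1.20), *CIT2* (1.18, the peroxisomal citrate synthase) and *MAE1* (0.96, malic enzyme). The 3 rises were not called without the 3 arrays, with adjusted p from 0.0604 (*IDH2*) to 0.152 (*CIT2*).

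The mitochondrial ribosomal proteins moved the other way. Of 72 measured genes 54 rose and 1 fell, 75.0% against 8.06% of all genes, and the median change was 1.03. *RSM19*, of the small subunit, read 7.75, 7.33 and 7.18 in the reference and 9.24, 9.15 and 9.63 in the double mutant (1.92 ± 0.20, adjusted p = 4.3e-08 from limma). *MRPL32*, of the large subunit, read 8.44, 8.15 and 7.76 against 10.09, 9.65 and 10.17 (1.85 ± 0.25). *MRPL11*, *MRPL37* and *MRPL31* rose by 1.75, 1.63 and 1.57, and 71 of the 72 genes had a positive change. The exception was *MRP8* (-0.52 ± 0.11), which was not called without the 3 arrays (adjusted p = 0.0266). The list median relative to the reference mean was 1.06, 1.02 and 1.03 in double mutant replicates 1 to 3, so it did not move with the arrays that stand apart, and lay between -0.07 and 0.06 in the reference arrays. In the single mutants it lay between -0.38 and -0.19. Without the 3 arrays 28 of the 72 rose at a median of 1.04 (*MRPL37*, at adjusted p = 0.0190, did not), with only the 6 arrays in the model 16 rose, and by the methods' t-test 0 did.

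Related functions of the organelle were looked at after these values were seen, with lists chosen for that purpose. The shares below can be read against the 8.06% of all genes that rose. Of 13 tRNA synthetases dedicated to mitochondria 12 rose (92.3%), such as *MSY1* (1.10 ± 0.14, from 6.68, 6.76 and 6.78 to 7.89, 7.91 and 7.72), *DIA4* (1.09) and *NAM2* (0.95). Of 19 tRNA synthetases on a further list outside that group 1 rose (5.3%), *ILS1* (1.17), the cytosolic isoleucine enzyme. These 2 lists do not hold every tRNA synthetase measured. Of 28 assembly factors and copper chaperones of cytochrome oxidase 17 rose (60.7%) and 0 fell. *COX17*, the copper chaperone, read 9.24, 8.63 and 8.18 in the reference and 10.53, 10.41 and 10.85 in the double mutant (1.91 ± 0.31, adjusted p = 4.5e-05 from limma), and *CMC1* (1.64), *PET117* (1.52) and *COX23* (1.44) rose with it. Of 40 factors of mitochondrial transcription, RNA processing and translation 13 rose (32.5%), led by the RNA helicase *MSS116* (1.71 ± 0.15). Without the 3 arrays that stand apart the counts were 10 of 13, 6 of 28 and 8 of 40, and *DIA4* (adjusted p = 0.0182) and *PET117* (0.0168) were no longer called. Of 127 genes of the cytosolic ribosome 0 changed, with a median of 0.01. Of 101 nucleolar assembly genes 1 rose (1.0%) and 85 had a positive change, with a median of 0.26.

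**Figure D3:**
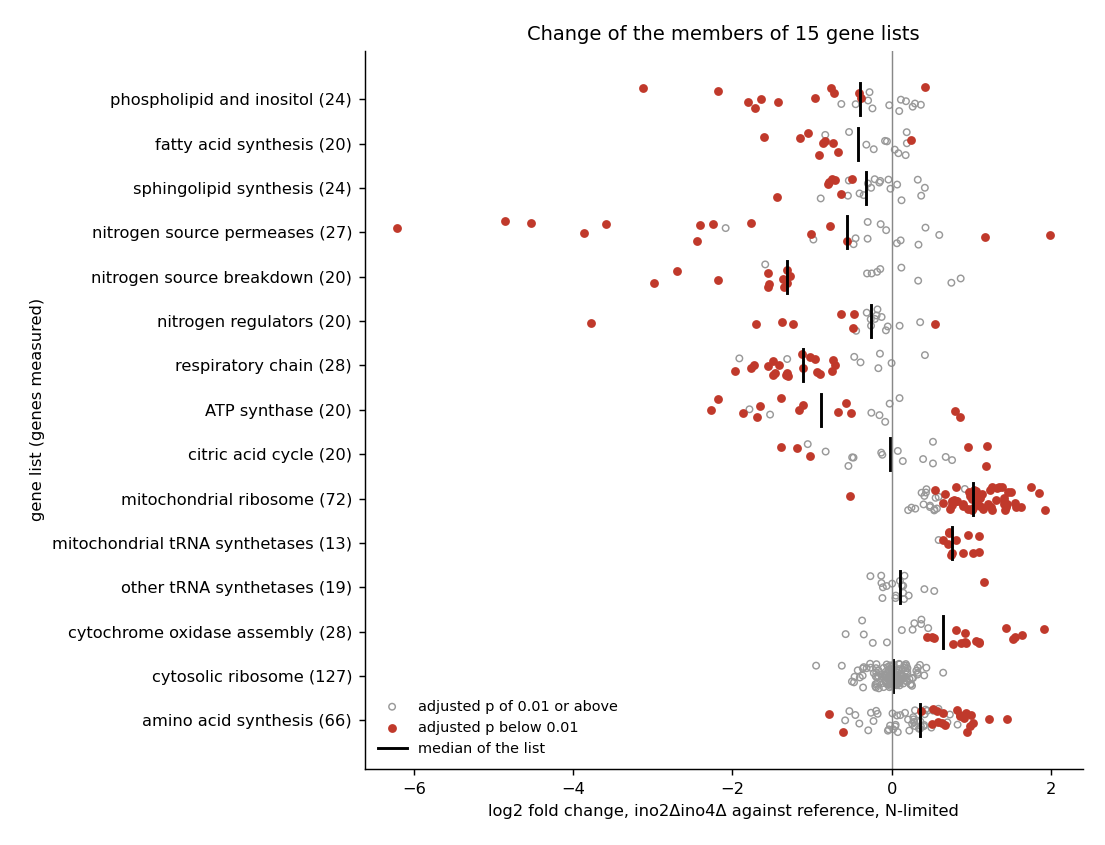
Log2 fold change of each gene (points) of 15 gene lists in the double mutant against the reference under N-limitation. Filled red points passed at an adjusted p below 0.01, black bars are list medians, vertical scatter has no meaning, and most respiratory chain genes lie left of 0 (median -1.12) and mitochondrial ribosomal protein genes right of it (median 1.03), with the cytosolic ribosome at 0.01.

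**Figure D4:**
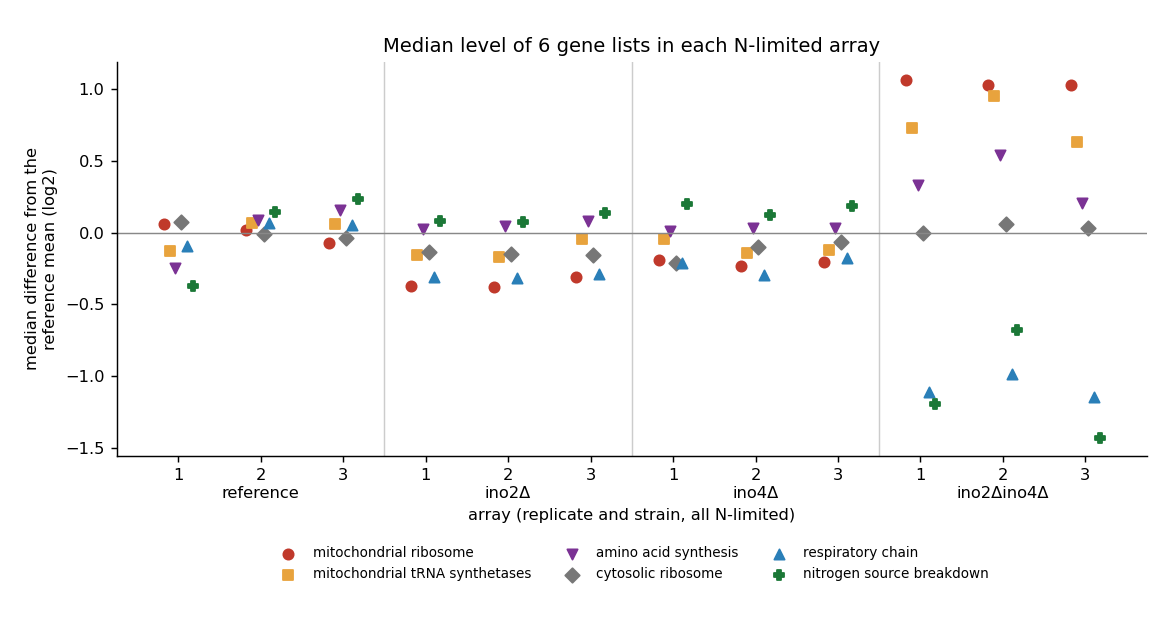
Median difference from the mean of the N-limited reference (log2) of 6 gene lists in each of 12 N-limited arrays, with replicate numbers and strains on the x axis. The mitochondrial ribosome lies between 1.02 and 1.06 in the 3 double mutant arrays and below 0 in every single mutant array, and the respiratory chain lies between -1.15 and -0.98 in the double mutant.

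These mitochondrial differences also separated the double mutant from the single mutants. Of the 72 mitochondrial ribosomal protein genes 61 were higher than in *ino2*Δ and 57 higher than in *ino4*Δ, and 1 was lower in each contrast. Of all genes, 13.1% and 12.6% were called higher in these contrasts and 11.1% and 12.2% lower. *RSM19* differed by 2.44 and 2.19 and *COX17* by 2.85 and 2.57. Of the 28 respiratory genes 19 were lower in each contrast, and without the 3 arrays that stand apart the counts were 9 and 11. The counts of mitochondrial ribosomal protein genes without those arrays were 67 and 59.

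Genes of amino acid synthesis rose in part. Of 66 genes 19 rose and 2 fell, 28.8% and 3.0% against 8.06% and 8.09% of all genes, with a median of 0.35. *LYS20*, homocitrate synthase of the lysine pathway, read 9.97, 9.26 and 9.59 in the reference and 11.07, 10.98 and 11.10 in the double mutant (1.45 ± 0.26, adjusted p = 1.4e-04 from limma). *ASN2*, asparagine synthetase, read 8.31, 8.68 and 8.51 against 9.74, 9.94 and 9.51 (1.23 ± 0.12), and *SER3* (1.03), *HOM3* (0.997, aspartate kinase) and *LEU9* (0.99) followed. *ARO7* (chorismate mutase) fell by 0.78 and *BAT2*, the cytosolic branched-chain aminotransferase, by 0.61, whereas its mitochondrial counterpart *BAT1* rose by 0.93. With only the 6 arrays in the model 4 rose. Leaving out the 3 arrays that stand apart, 16 rose and 1 fell, and *SER3* (adjusted p = 0.0156), *BAT1* (0.0112) and *BAT2* (0.0409) were no longer called. Of 34 genes of sulfur metabolism 3 rose and 4 fell, 8.8% and 11.8% against 8.06% and 8.09% of all genes, with a median of -0.02, and 2 and 2 did without the 3 arrays. *MHT1*, an S-methylmethionine-homocysteine methyltransferase, read 5.73, 5.94 and 5.90 against 7.999, 7.86 and 7.71 (2.002 ± 0.26), and *MMP1*, the S-methylmethionine permease, rose by 1.73 ± 0.23. *SAM2*, S-adenosylmethionine synthetase, fell by 2.27 ± 0.46 with overlapping groups (9.25, 10.87 and 11.09 against 7.44, 9.73 and 7.22), a call lost without the 3 arrays (-1.25, adjusted p = 0.0204). *SAM3*, the S-adenosylmethionine permease, fell by 1.55 ± 0.15, and *SUL1* (sulfate permease, -1.20) and *CYS4* (-0.83) fell too. The fall of *SUL1* was not called without the 3 arrays (adjusted p = 0.0140).

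Other genes with large falls belong to carbon metabolism. *MLS1*, the malate synthase of the glyoxylate cycle, read 9.47, 10.02 and 10.03 in the reference and 5.85, 5.54 and 5.95 in the double mutant (-4.06 ± 0.19, adjusted p = 1e-14 from limma), while *ICL1*, the isocitrate lyase of the same cycle, read 6.29, 6.33 and 6.29 against 6.30, 6.25 and 6.21. *PDC5*, a minor pyruvate decarboxylase, read 11.17, 12.99 and 13.48 against 9.06, 9.55 and 8.92 (-3.37 ± 0.31), and *PDC1*, the major one, stood at -0.15 ± 0.12. Both *MLS1* and *PDC5* were apart between the groups. The list shares that follow can be read against the 8.09% of all genes that fell and the 8.06% that rose. Of 21 genes of hexose transport and phosphorylation 5 fell and 2 rose, 23.8% and 9.5% of the list, and without the 3 arrays that stand apart 2 fell and 3 rose. *HXT7* (-1.77, with the near-identical HXT6 not among the genes tested here) and *HXT4* (-1.56) of the high-affinity transporters fell, and so did the low-affinity *HXT3* (-1.30, adjusted p = 9.5e-03 from limma), whose groups overlapped. *HXT1*, also a low-affinity transporter, rose by 1.32 ± 0.14 and *HXT5* by 1.28 ± 0.23, the latter standing at 1.48 and 1.49 in *ino2*Δ and *ino4*Δ. The falls of *HXT4* (adjusted p = 0.0648) and *HXT3* (-0.59, adjusted p = 0.323) were not called without the 3 arrays. In the glycogen and stress list 7 of 48 genes fell (14.6%) and 2 rose (4.2%), or 4 and 1 without the 3 arrays, led by *GPH1*, glycogen phosphorylase, at -2.15 ± 0.19 and *SOD2*, mitochondrial superoxide dismutase, at -1.30 ± 0.09. Of the remaining genes with the largest falls, *VBA1* (a vacuolar transporter of basic amino acids) fell by 2.91 ± 0.11 and the uncharacterised *YBL029W* by 2.47 ± 0.17.

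The largest rises were led by a Ty element, whose near-identical copies in the genome a probe set cannot separate. *YBL100W-A* read 7.92, 8.45 and 7.68 in the reference and 11.14, 9.56 and 11.45 in the double mutant (2.69 ± 0.59, adjusted p = 1.3e-03 from limma), and was not called without the 3 arrays that stand apart (1.49, adjusted p = 0.311). *PDR5*, the main multidrug efflux pump, followed: it read 7.59, 7.97 and 8.27 against 10.51, 11.19 and 10.13 (2.67 ± 0.16, adjusted p = 2.6e-12 from limma). *PDR3*, one of its activators, rose by 0.84 ± 0.16 and *SNQ2*, another pump, by 0.78 ± 0.14, and the activator *PDR1* stood at 0.35 (adjusted p = 0.0472). Of the 30 multidrug genes 5 rose and 4 fell (16.7% and 13.3%), or 4 and 3 without the 3 arrays. Of all genes, 8.06% rose and 8.09% fell. The weak-acid pump *PDR12* (-2.07) and the polyamine transporter *TPO4* (-2.003) led the falls of the multidrug list.

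*FLO11*, the cell surface flocculin of adhesion and filamentous growth, read 7.04, 6.95 and 6.95 in the reference and 9.47, 9.38 and 9.29 in the double mutant (2.40 ± 0.28, adjusted p = 4.6e-07 from limma). *INA1* (2.34), *CIS1* (2.17), *YAR068W* (2.45), *YET2* (1.99) and the Ty gene *YBL005W-A* (1.97) rose as well, and *PRM5*, a pheromone-regulated membrane protein, rose by 2.23 ± 0.42, a call lost without the 3 arrays (adjusted p = 0.0135). *SPG4*, a gene of stationary phase, read 5.61, 5.23 and 4.91 in the reference, with 1 array above background, and 7.45, 7.12 and 7.68 in the double mutant (2.16 ± 0.39). It too was not called without the 3 arrays (adjusted p = 0.0216). *DLD1*, the mitochondrial D-lactate dehydrogenase, rose from 7.71, 8.17 and 8.26 to 9.93, 10.28 and 9.88 (1.99 ± 0.21). The groups were apart for each gene named among these rises.

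The remaining lists can be read against the 8.06% of all genes that rose and the 8.09% that fell. Of 29 iron and copper uptake genes 7 rose (24.1%, and 7 without the 3 arrays) and 2 fell, with the mannoprotein *FIT2* at 1.21 ± 0.15 and the siderophore transporter *SIT1* at -0.76 (not called without the 3 arrays). Of 19 phosphate genes 3 rose (15.8%) and 4 fell (21.1%), and 2 and 2 did without the 3 arrays. The phosphate transporters *PHO84* and *PHO89* rose by 1.40 and 1.33, and the vacuolar polyphosphate genes *VTC1* (-0.67, not called without the 3 arrays) and *VTC2* (-0.61) fell. Of 34 genes of the G1/S transition and histones 31 had a negative change at a list median of -0.30, 0 rose and 9 fell (26.5%), among them the G1 cyclin *CLN3* (-0.99) and the histone gene *HTA2* (-0.83), and 4 fell without the 3 arrays, *CLN3* not among them. Of 23 proton pump genes 6 fell (26.1%) and 1 rose, with *VMA4* at -1.41, and 3 fell without those arrays. Of 28 autophagy genes 4 fell (14.3%, and 3 without the 3 arrays), among them *ATG32* (-0.86, the mitophagy receptor) and *ATG8* (-0.79), and 1 rose. Of 32 genes of the unfolded protein response 3 rose (9.4%), with *ERO1* (1.35 ± 0.35, adjusted p = 5.5e-03 from limma) in the lead, and 0 did without the 3 arrays, at list medians of 0.18 and 0.17. Of 33 proteasome genes *RPN1* fell (-0.91, the only call, 3.0%), with overlapping groups, and it stood at 0.18 without the 3 arrays. Of 25 peroxisome genes 0 passed, with a median of -0.06. Of 16 ester genes 3 rose and 3 fell, and of 25 subunits of RNA polymerases I and III 1 rose. Of 30 mating genes 2 rose (6.7%) and 1 fell (3.3%), the last being *FAR1* (-1.21).

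Whether the effect of the double deletion differs between the limitations was tested as the N-limited minus the C-limited effect. It differed for 414 genes, 238 lower (4.37% of all genes) and 176 higher (3.23%) under N-limitation, and for 381 genes without C-limited double mutant replicate 1. Of the 27 nitrogen permeases 10 were lower and 0 higher, and 10 were lower without that array. *PUT4* read 8.99 and 9.33 on average in the C-limited reference and double mutant, against 10.88 and 6.35 under N-limitation, so that the effects differed by -4.87 ± 0.46 (adjusted p = 2.7e-08 from limma). *GAP1* averaged 8.59 and 8.60 under C-limitation, and its effects differed by -3.88 ± 0.40. *DAL5*, at 6.69 and 6.55 under C-limitation, gave -4.73 ± 0.34. From the C-limited reference means of *PUT4*, *GAP1* and *DAL5*, falls of the N-limited size would have ended below the background level of 5.47. Such falls could not have been recorded in full, and *DAL5* had the least room. *OPT2* (-6.27 ± 0.14) was not above background on any C-limited reference array, so a fall under C-limitation could not have been recorded, and 5 of the 27 permeases share this limit. *PTR2* and *DAL80*, at -4.08 and -3.87, stood at 5.78 and 5.51 in the C-limited reference, close to background.

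**Figure D5:**
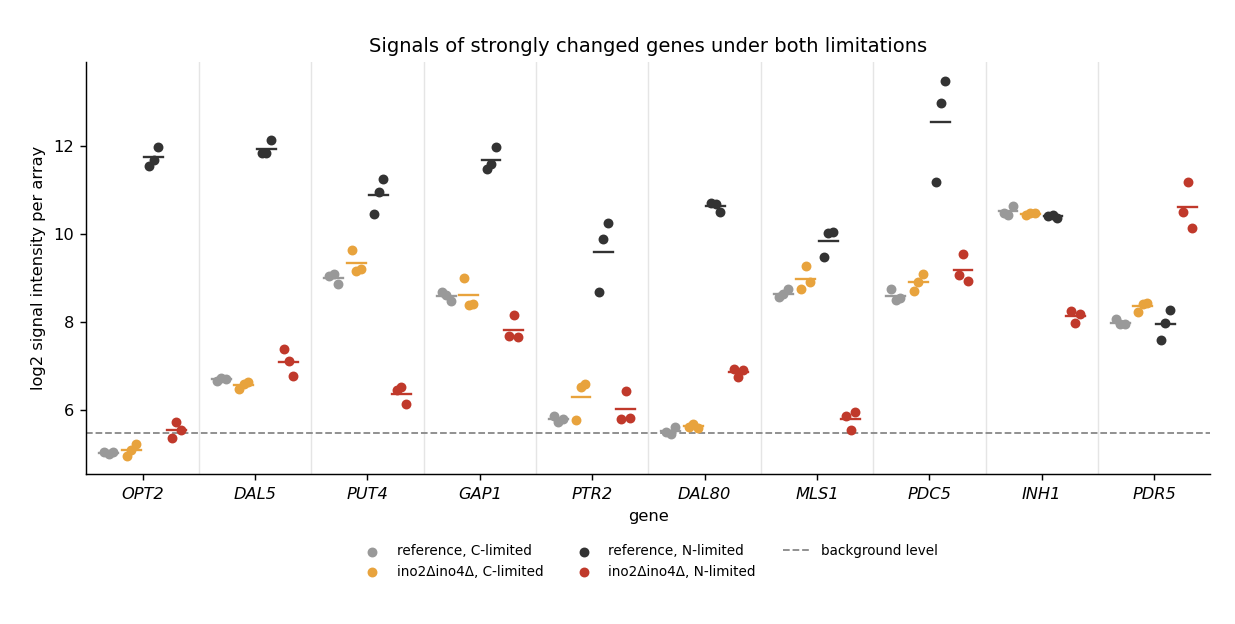
Log2 signal intensity of 10 genes in the reference and the double mutant under both limitations (points are arrays, short lines means of 3 arrays, dashed line the background level of 5.47). No C-limited effect of these genes passed (-0.13 for *DAL5* to 0.50 for *PTR2*), while under N-limitation the double mutant is lower for 9 of the 10 genes and higher for *PDR5*.

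Away from nitrogen uptake, *MLS1* (8.64 and 8.97 under C-limitation) and *PDC5* (8.59 and 8.90) showed differences of -4.39 ± 0.26 and -3.67 ± 0.44. For these genes too, falls of the N-limited size would have ended below background under C-limitation. Of all genes, 4.37% were called lower and 3.23% higher in this test. Of the respiratory genes 13 of 28 were lower and of the ATP synthase genes 8 of 20, with *INH1* at -2.22 ± 0.13. Of the mitochondrial ribosomal protein genes 24 of 72 were higher, but 14 without C-limited double mutant replicate 1 and 5 without the 3 N-limited arrays that stand apart, while the median difference over the list was 0.92. Without C-limited double mutant replicate 1 the respiratory count was 13 and the ATP synthase count 7. Of 66 amino acid synthesis genes 20 were higher (24 without that array), and the list median of the C-limited effect itself was -0.27. *ADH5*, an alcohol dehydrogenase, fell by 0.86 under C-limitation and rose by 0.86 under N-limitation.

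Among the lipid genes the difference ran both ways. *INO1* fell by 3.64 under C-limitation, from a mean of 9.83 to 6.19, and by 1.64 under N-limitation, from 7.54 to 5.90, a difference of 2.01 ± 0.25 (adjusted p = 2.9e-06 from limma). From the N-limited reference mean a fall of the C-limited size would have ended below the background level of 5.47. Such a fall could not have been recorded in full, so this difference does not show a smaller effect on *INO1* under N-limitation. *ITR1* fell by 1.15 under C-limitation, and the N-limited effect was larger by -1.03 ± 0.19. *EEB1* stood at 0.04 under C-limitation, so its difference was -3.63 ± 0.22. *CKI1* and *DPP1* (-0.83 and -1.71) were also lower, while *OPI3* at -0.90 and *CHO2* at -0.69 did not pass (adjusted p = 0.118 and 0.0376). *ACC1*, acetyl-CoA carboxylase, fell by 0.41 under C-limitation and stood at 0.19 under N-limitation, a difference of 0.60 ± 0.09.

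Among the largest positive differences some genes fell under C-limitation and others rose under N-limitation. *PAU3*, *PAU2* and *PAU24*, cell wall mannoproteins of a family with near-identical members, averaged 9.23, 9.66 and 7.97 in the C-limited reference and 6.81, 7.07 and 6.03 in the C-limited double mutant, all 3 called as lower, and stood at 0.37, -0.01 and 0.61 under N-limitation without passing. Their differences were 2.79, 2.59 and 2.55, and 8 of the 17 measured genes of the PAU, TIR and DAN list were higher (10 without C-limited double mutant replicate 1). With all arrays, 3.23% of all genes were called higher. *SPG4* and *SIP18*, genes of stationary phase and salt stress, were at 11.34 and 11.53 in the C-limited reference. Both rose under N-limitation (*SPG4* by 2.16) and stood at -0.98 and -0.78 under C-limitation without passing, differences of 3.14 ± 0.55 and 2.38 ± 0.58. *CIS1* (2.41), *ATG41* (2.36) and *YAR068W* (2.32) rose under N-limitation by 2.17, 1.71 and 2.45, with C-limited effects of -0.24, -0.65 and 0.13. The calls of *PAU2* and *SIP18* were lost without the 3 N-limited arrays that stand apart (adjusted p = 0.0604 and 0.0989). Leaving out C-limited double mutant replicate 1, the difference of *PAU2* was 3.34 and its C-limited fall -3.35, *ATG41* passed under C-limitation (-0.79, adjusted p = 3.5e-03 from limma), and each difference between limitations called for a gene named here was still called.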

How the data were processed

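The authors hybridised labelled RNA of steady-state chemostat samples to Affymetrix Yeast Genome 2.0 arrays and normalised all arrays together with PLIER (its version is not given in the sources used here). They deposited 1 log2 signal per probe set. These deposited values were used with no further normalisation. With 3 arrays per group, it is the number of arrays that sets the precision. Of 10928 probe sets, the platform annotation lists 7245, 7244 with 1 gene symbol and 1 with several, and 3683 are not listed. Of them, 5498 were paired with 1 gene of the RefSeq table (11 through its identifier). The 1746 paired with genes outside that table served as background. For 47 genes with several probe sets, the brightest on average was taken, and 288 of the 5449 genes have a mean at or below background.

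All 33 arrays were fitted in 1 limma model (version 3.58.1 in R 4.3.3, lmFit and eBayes, a coefficient per group, 22 residual and 2.95 prior degrees of freedom). Adjustment followed Benjamini-Hochberg over all genes. Errors are standard errors of this fit, so they reflect the spread within all 11 groups and not only within the groups compared. Where the compared arrays spread more than the other groups, these errors are smaller than the compared arrays alone would give. The script was tested on simulated data. A gene not above background on any array of a group is given as a lower bound, with each array floored at its background level. Permutation tests were run with scipy 1.17.1 (Python 3.11.15) on tables handled in pandas 2.3.3 and numpy 2.4.6. Plots were drawn in matplotlib 3.10.9.

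The comparison, the 36 gene lists and the rule for named genes were chosen with earlier results of these data known, and 4 further lists after the values were seen. Named are *INO2*, *INO4* and *OPI1*, every phospholipid gene, up to 5 called members per list and direction, the 15 largest rises and falls among called genes whose groups do not overlap, and the 8 largest differences between limitations in each direction. *HAC1*, *PMA1*, *ACC1* and all other named genes outside this rule were chosen after their values were seen. List counts follow the adjustment over all genes. Alternatives were median centring, quantile normalisation, a constant of 16 added before log2, no genes at background, a model of only the groups compared, limma with trend and robust settings, the methods' t-test, averaged probe sets, the replicate number as a block, other thresholds and leaving out arrays. The C-limited comparison without its double mutant replicate 1 was added after the data were seen.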

Additional observations from a re-analysis of the deposited data

Results flagged for a closer look

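The effect of the double deletion differed between the limitations for 414 genes when the N-limited effect was tested against the C-limited one (limma, adjusted p below 0.01), and 636 genes passed without N-limited reference replicate 1. The genes with the largest differences in each direction are the ones a reader may want to look at again. Lower under N-limitation were *OPT2* (-6.27), *PUT4* (-4.87), *DAL5* (-4.73), *MLS1* (-4.39), *PTR2* (-4.08), *GAP1* (-3.88), *DAL80* (-3.87) and *PDC5* (-3.67), all log2 differences. Higher were *SPG4* (3.14), *PAU3* (2.79), *PAU2* (2.59), *PAU24* (2.55), *CIS1* (2.41), *SIP18* (2.38), *ATG41* (2.36) and *YAR068W* (2.32). Without C-limited double mutant replicate 1, the array that reads *INO4* above its deletion label, these values ran from -6.34 (*OPT2*) to 3.55 (*SPG4*) and all 16 still passed. Groups of 3 arrays are too small for a test of outlying arrays.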

How the results depend on the processing

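The count of 880 genes in the main comparison was 454 without the 3 arrays that stand apart, 142 with only its 6 arrays in the model, 18 by the methods' t-test, and 510 and 1404 at adjusted p below 0.001 and 0.05. The smaller model and the t-test estimate the spread from fewer arrays. These are the arrays of the groups compared, and the N-limited reference and double mutant replicates were not equally alike. Leaving out 1 array at a time gave 635 to 1212 genes, 312 to 636 for the difference between limitations (414), 920 to 1920 against *ino2*Δ (1320) and 887 to 1990 against *ino4*Δ (1355). Without C-limited double mutant replicate 1, an alternative added after the data were seen, the C-limited count of 31 became 110. Against *ino2*Δ the t-test gave 337, the smaller model 686 and the fit without the 3 arrays 673. Against *ino4*Δ they gave 207, 552 and 624. Other settings kept each count within 1.5 times. Of 179 genes called and named in the main comparison, 178 kept their direction under every alternative run, and *RPN1* turned to 0.18 without the 3 arrays. Of the 179, 135 stayed called under every alternative other than the t-test, the smaller model and the fit without the 3 arrays. Among genes that had not passed, *EKI1* (0.10) ranged from -0.023 to 0.31 and *URA7* (-0.03) from -0.14 to 0.09 when single arrays were left out, and without the 3 arrays they turned to -0.31 and 0.23, and *PCT1* to -0.014. Replicate numbers did not pair the samples: same-numbered N-limited reference and double mutant arrays deviated with correlations of 0.495, 0.690 and -0.760. With the replicate number as a block 898, 413, 1367 and 1415 genes passed in these 4 comparisons, in the order above. Genes near background, such as *INO2*, *DAL4* and *SPG4*, have changes that the array can only partly resolve.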
